A study of Mus musculus with 4 samples.

Results

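The genes described here encode the SR proteins, the heterogeneous nuclear ribonucleoproteins (hnRNPs) and the kinases that phosphorylate SR proteins. The 38 members were chosen by name and fall into 10 SR protein genes, 2 Tra2 genes, 6 kinase genes, Son with the genes Srrm1 and Srrm2, 7 hnRNPs of the A/B and D type and 10 other hnRNPs. All 38 were found among the 52476 gene names measured. RNA-seq was carried out on macrophages grown from mouse bone marrow (BMDMs), which per the labels were cultured for 7 days with M-CSF at 20 ng/mL. The 4 groups were OGT knockout cells at 24 h and at 0 h, and wild-type (WT) cells at 24 h and at 0 h, with IL-4 at 20 ng/mL used for 24 h to polarise the cells towards the M2 state. The 0 h cells carry the same IL-4 treatment tag and were read as unstimulated from their time. Each group held 1 library, so no difference could be set against variation between cultures, and none was tested. The sources used here give neither the strain and age of the mice nor the deleted part of Ogt or what drove its deletion.

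SR proteins carry RNA recognition motifs and a region rich in arginine and serine, bind exonic enhancers and help the spliceosome recognise exons. Many hnRNPs bind nascent RNA and oppose or shape that choice, so the balance between the families sets alternative splicing. CLK kinases in the nucleus and SRPK kinases, mainly in the cytoplasm, phosphorylate the arginine-serine regions and thereby control where SR proteins reside and when they act. OGT attaches O-linked N-acetylglucosamine to serine and threonine residues of nuclear and cytoplasmic proteins, splicing factors among them. In human cell lines, changes of OGT activity alter the removal of detained introns, which are introns kept in nuclear transcripts, including those of OGT itself and of the gene for OGA, the enzyme that removes the sugar. The values here are per gene and do not resolve introns or exons.

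The values are FPKM, fragments per kilobase of transcript and library size, which are per length and can be compared between genes. Library totals were 339946 to 353093 FPKM in the knockout and 338704 to 352793 in WT. From genes with a single exon, a transcript of 2 kb at 10 FPKM was estimated to hold 408 fragments in each knockout library, and 428 at 24 h and 448 at 0 h in WT. At such a depth, counting error gives the log2 difference of a pair of libraries a 95% half-width of 0.189 to 0.198, and of 0.0845 to 0.0885 at 50 FPKM. These intervals are estimates that cover counting error only. Ogt stood at 14.5 FPKM at 24 h and 14.2 at 0 h in the knockout, against 29.8 and 27.4 in WT, and Mgea5, which encodes OGA, at 10.6 and 14.9 against 23.4 and 31.4. All 8 macrophage markers were measured above 1 FPKM, and their summed level was lower at 24 h, at 6414 FPKM at 24 h and 15479 at 0 h in the knockout, against 6401 and 18542 in WT. Lyz2 made up most of that sum, at 4148 and 12062 FPKM against 4246 and 15193. Adgre1, Mertk, Fcgr1 and Itgam were also lower at 24 h in both genotypes (log2 differences from −2.27 to −0.88), while Cd68 stood between 965 and 1009 FPKM in all libraries. Markers of other cells also differed between libraries. The summed level of 8 neutrophil markers was 667 FPKM at 24 h and 2069 at 0 h in the knockout, against 1021 and 3248 in WT, with 7 of 8 at 1 FPKM or more in some library and Ly6g at no more than 0.65. In the same order, the 4 megakaryocyte markers summed to 28.7 and 47.4 FPKM against 48.8 and 100. The 5 fibroblast markers summed to 4.50 and 7.17 FPKM against 6.25 and 12.5. The 4 basophil and mast cell markers summed to 0.66 and 1.11 FPKM against 4.26 and 6.06. Of the T cell markers only Cd4 reached 1 FPKM, at 2.06 and 18.8 against 2.85 and 24.6. B cell, erythroid and dendritic markers stayed under 1 FPKM in all libraries. The part of these marker differences in the results below was not tested. In bulk RNA, fewer cells of a type and less RNA per cell cannot be told apart.

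All 38 members were above 1 FPKM in all 4 libraries. Their median level was 23.4 FPKM at 24 h and 20.1 at 0 h in the knockout, against 23.8 and 18.8 in WT. Together they made up 0.334% of all FPKM at 24 h and 0.279% at 0 h in the knockout, and 0.353% and 0.281% in WT. In WT at 0 h the highest member was Hnrnpa1 at 65.6 FPKM, close to Hnrnpf at 64.1, Srsf5 at 63.7 and Hnrnpab at 63.6. The lowest were the gene of the RNA-binding protein hnRNP R, Hnrnpr, at 2.63 FPKM, Srpk2 at 2.73 and Srpk1 at 3.28. Members under 10 FPKM numbered 8 at 24 h and 8 at 0 h in the knockout, against 7 and 9 in WT. The kinase genes Clk2 and Clk3 were below 10 FPKM in all libraries.

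**Figure D1:**
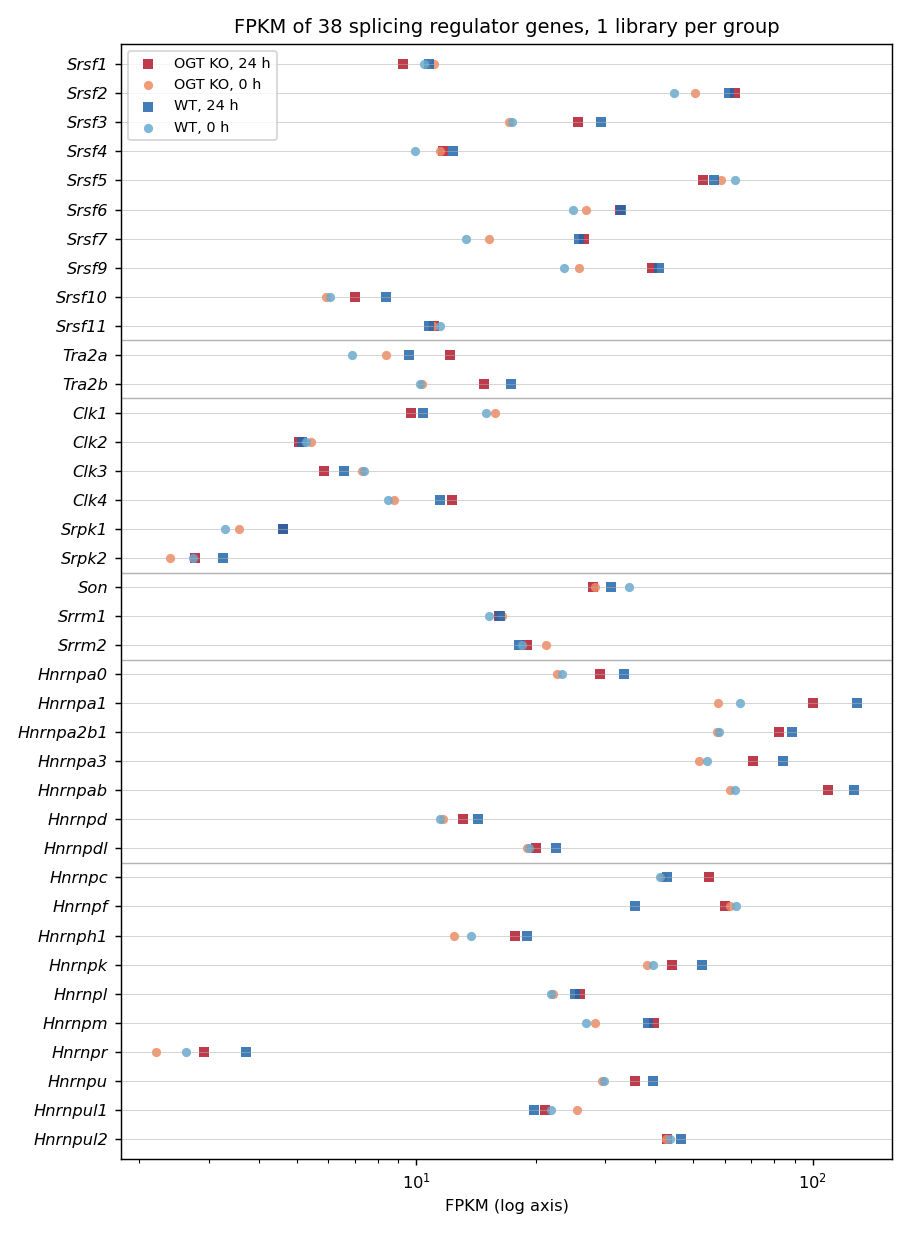
FPKM of each of the 38 genes on a log axis, by class from the SR protein genes at the top to the other hnRNPs at the bottom; squares are 24 h, circles 0 h, red and orange the OGT knockout and blue WT, with 1 library per group. Levels run from 2.20 FPKM (Hnrnpr, knockout at 0 h) to 129.6 FPKM (Hnrnpa1, WT at 24 h), and the Hnrnpf value of WT at 24 h stands left of its other 3 values.

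At 0 h the knockout differed little from WT in these genes. No member was 1.5-fold higher or lower, the fold being taken on the scale of FPKM + 1 (a log2 difference of 0.58). Among the 11479 genes with at least 1 FPKM in either library, 2.78% were 1.5-fold higher and 3.34% 1.5-fold lower. The log2 differences of the members ran from −0.28 to 0.25, 19 were positive and 19 negative, and their median was 0.00 beside −0.05 over all genes kept. After rescaling the libraries by their median ratio, 31 of 38 were positive, so that no direction can be given to the list at 0 h.

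At 0 h Tra2a stood furthest upward; the Tra2 proteins bind GAA-rich exonic enhancers and activate exons. Its level was 8.38 FPKM in the knockout and 6.87 in WT (log2 difference 0.25), beside a counting half-width of 0.189 to 0.198 for a 2 kb transcript at 10 FPKM. Next came Hnrnpul1, which encodes an hnRNP U-like protein, at 25.4 against 21.9 FPKM (0.21), and Srsf4, an SR protein gene, at 11.5 against 9.90 (0.20). Srrm2, whose product is a scaffold of nuclear speckles, was at 21.2 against 18.4 FPKM (0.19), and Srsf7 at 15.3 against 13.4 (0.18). None of these differences came near 1.5-fold. At the other end, Son, which encodes a large speckle protein needed for splicing of weak sites, was at 28.2 FPKM in the knockout and 34.4 in WT (−0.28). Hnrnpa1, an exon-silencing hnRNP gene, was at 57.5 against 65.6 FPKM (−0.19), Hnrnpr at 2.20 against 2.63 (−0.18), Srpk2 at 2.39 against 2.73 (−0.14) and Hnrnph1 at 12.4 against 13.7 (−0.13).

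At 24 h 1 member was 1.5-fold higher in the knockout and none 1.5-fold lower, where 2.91% of 11302 genes were higher and 2.47% lower. Of the 38 differences 26 were negative, or 68.4%, beside 58.6% of all genes kept, and the median was −0.10 beside −0.05. In each of the 6 further splicing lists described below, most genes were also negative at 24 h. The medians of those lists ran from −0.12 to −0.03, so the downward lean was not particular to the members. After rescaling by the median ratio 23 of 38 were negative. The 7 hnRNP genes of the A/B and D type, whose proteins bind RNA through paired recognition motifs, many of them silencing exons, were all lower in the knockout at 24 h, with differences from −0.37 to −0.11 and a median of −0.19, and all 7 stayed negative under both rescalings. None of them reached 1.5-fold. At 0 h 6 of these 7 were negative with a median of −0.04, and 5 of 7 were positive after median-ratio rescaling.

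Hnrnpa1 led this class, at 99.9 FPKM in the knockout and 129.6 in WT at 24 h (−0.37). Hnrnpa3 was at 70.5 against 84.1 FPKM (−0.25), Hnrnpab at 109.5 against 126.8 (−0.21) and Hnrnpa0 at 29.1 against 33.4 (−0.19). Hnrnpd, whose product AUF1 binds AU-rich elements and promotes mRNA decay, was at 13.1 against 14.3 FPKM (−0.12). Outside the class, Hnrnpk, which encodes a protein binding C-rich RNA, was at 44.2 against 52.5 FPKM (−0.24), Hnrnpr at 2.90 against 3.72 (−0.27) and Srsf10, an SR gene whose protein turns into a splicing repressor when dephosphorylated, at 6.98 against 8.39 (−0.23). With the near-identical gene copies described below added, Hnrnpk came to −0.22, Hnrnpr to −0.34 and Srsf10 to −0.12.

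Tra2a was again higher in the knockout at 24 h, at 12.2 FPKM against 9.58 (0.31), while its paralogue Tra2b was at 14.8 against 17.3 (−0.21). With its near-identical copies added, the Tra2b difference came to −0.13. Hnrnpc, whose product binds uridine tracts and keeps cryptic exons out of mRNA, stood at 54.6 FPKM in the knockout at 24 h, against 42.8 in WT at 24 h (0.34), with 41.6 in the knockout and 41.2 in WT at 0 h. It was high in the knockout at 24 h alone. The kinase genes were close between genotypes, with differences from −0.14 to 0.09 at 0 h and from −0.18 to 0.10 at 24 h. Srpk1, for instance, was at 4.61 FPKM in the knockout and 4.60 in WT at 24 h, and Clk1 at 9.67 and 10.4 (−0.10).

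**Figure D2:**
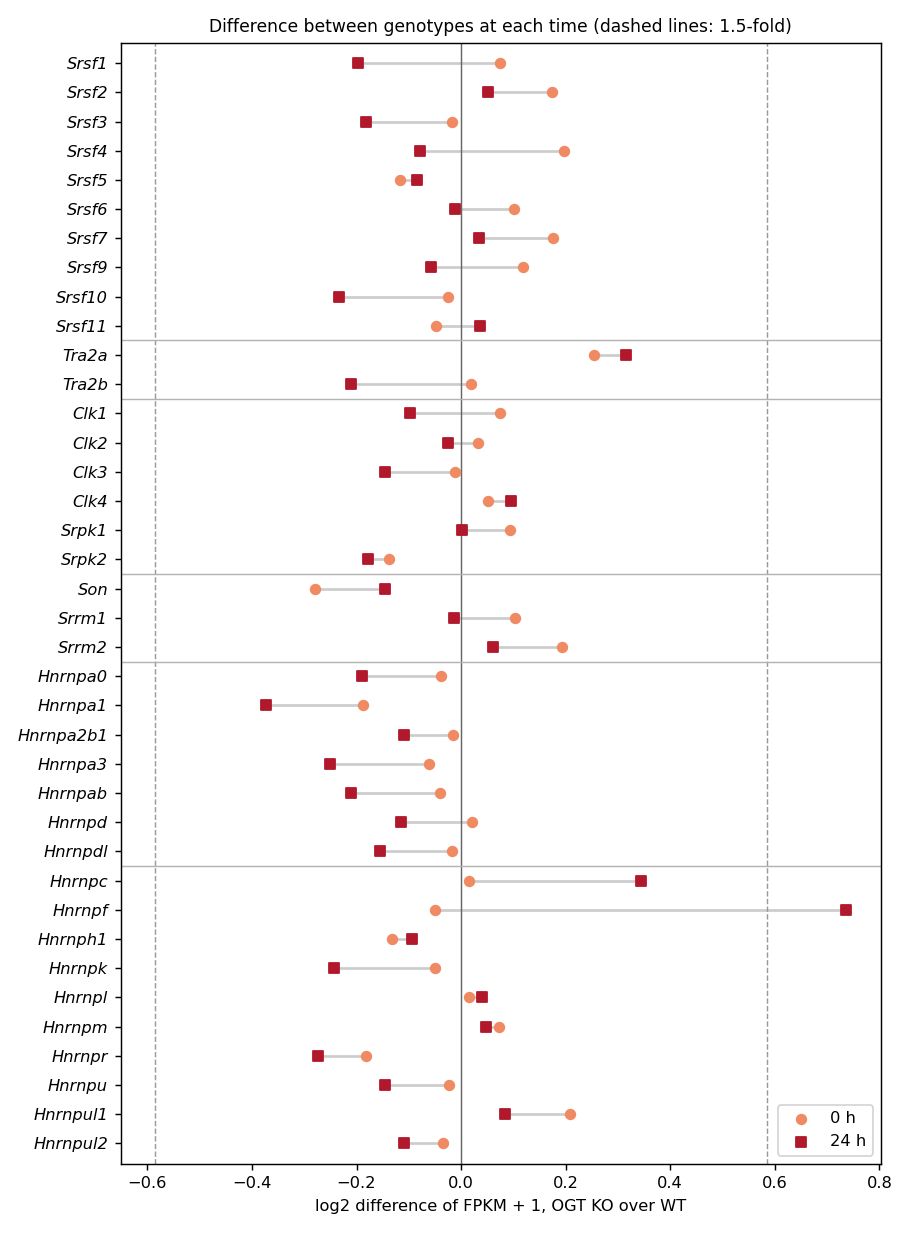
Log2 difference of FPKM + 1, OGT knockout over WT, for each member at 0 h (circles) and 24 h (squares), with 1 library per group and no error bars; dashed lines mark 1.5-fold in either direction. Hnrnpf at 24 h (0.74) is the only point beyond them, Tra2a is right of 0 at both times, and the 7 hnRNPs of the A/B and D type lie left of 0 at 24 h.

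The member past 1.5-fold at 24 h was Hnrnpf (chromosome 6, 117900324 to 117925622, + strand, GRCm38), which encodes an hnRNP that binds runs of G. It stood at 60.0 FPKM at 24 h and 62.0 at 0 h in the knockout, against 35.6 at 24 h and 64.1 at 0 h in WT. The value of WT at 24 h is low and the other 3 are close together. The knockout was thus higher at 24 h (0.74), and the difference at 0 h was −0.05. Hnrnpf has 8 near-identical copies elsewhere in the genome, here transcripts of other genes that match it at 95% identity over 300 bases or more, and 6 of them reached 1 FPKM in some library. All 6 are annotated as processed pseudogenes. Gm12435 stood at 70.3 FPKM at 24 h and 51.3 at 0 h in the knockout, against 79.0 and 56.6 in WT. Gm6430 was at 50.9 and 37.3 against 56.2 and 40.8, and Gm7446 at 36.9 and 26.3 against 37.8 and 28.8. These copies were not low in WT at 24 h. Summed, the 8 copies were at 174 FPKM at 24 h and 126 at 0 h in the knockout, against 190 and 141 in WT. With Hnrnpf and its copies added together the sums were 234 and 188 FPKM in the knockout against 225 and 205 in WT, and the knockout difference at 24 h was 0.06. How the authors' counting shared fragments between the gene and its copies is not given in the sources used here, so the Hnrnpf value is uncertain.

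**Figure D3:**
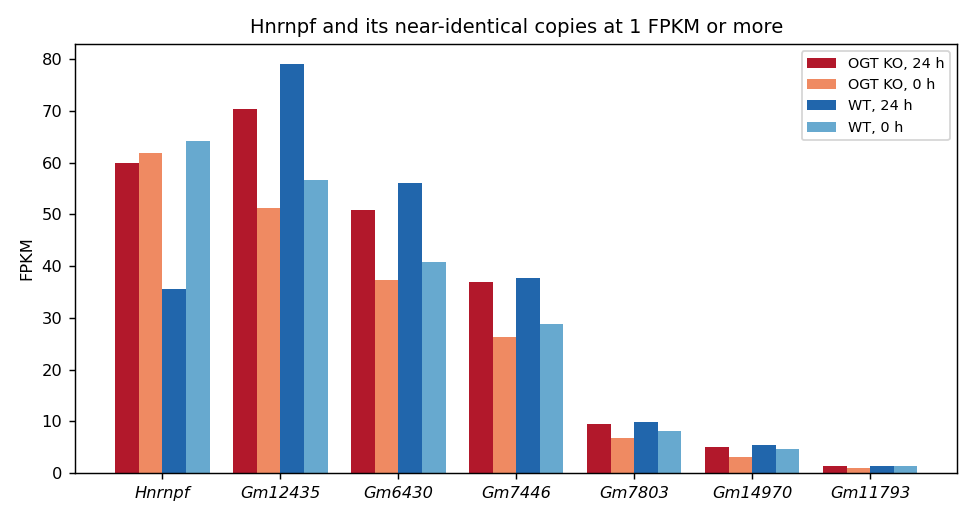
FPKM of Hnrnpf and of its 6 near-identical copies at 1 FPKM or more, as bars from 0 for the knockout (24 h, 0 h) and WT (24 h, 0 h), with 1 library each. In WT at 24 h Hnrnpf is at 35.6 FPKM, below its other 3 bars, while Gm12435 is at 79.0 FPKM, above its own.

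The next comparison was 24 h against 0 h in each genotype. The labels name no 24 h culture lacking IL-4, so IL-4 and time in culture cannot be told apart. In the knockout 4 members were 1.5-fold higher at 24 h and 1 was lower, where 13.8% of 11577 genes were higher and 13.4% lower. In WT 8 were higher and 1 lower, where 13.3% of 11687 genes were higher and 13.3% lower. The share of members past 1.5-fold upward was 10.5% in the knockout and 21.1% in WT. None reached 2-fold in either direction, where 5.16% of genes in the knockout and 4.76% in WT were 2-fold higher and 5.99% and 6.26% 2-fold lower. The members leaned upward: 28 of 38 were positive in the knockout and 29 in WT (73.7% and 76.3%), beside 52.7% and 52.0% of all genes kept. The median log2 difference was 0.25 in the knockout and 0.38 in WT, beside 0.03 and 0.02 over all genes. After rescaling by totals or by the median ratio, 25 members stayed positive in the knockout and 27 in WT. In the 6 further splicing lists described below, 52.5% to 86.1% of genes were positive in the knockout and 62.5% to 91.7% in WT. The Sm protein and tri-snRNP genes were at 86.1% and 91.7%, and the U1 and U2 snRNP genes at 74.1% and 81.5%. An upward lean was thus not particular to the members.

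The 4 members past 1.5-fold upward in both genotypes were Hnrnpab, Hnrnpa1, Srsf7 and Srsf9. Hnrnpab (chromosome 11, 51600100 to 51606847, − strand) was at 109.5 FPKM at 24 h and 61.8 at 0 h in the knockout (0.81), and at 126.8 and 63.6 in WT (0.98). Hnrnpa1 (chromosome 15, 103240432 to 103246692, + strand) was at 99.9 and 57.5 FPKM in the knockout (0.78), and at 129.6 and 65.6 in WT (0.97). Both 24 h libraries were above both 0 h libraries for these genes. Srsf7 (chromosome 17, 80200080 to 80207307, − strand), whose protein also serves as an adaptor for mRNA export, was at 26.4 and 15.3 FPKM in the knockout (0.76), and at 25.8 and 13.4 in WT (0.90). Srsf9 was at 39.2 and 25.7 FPKM in the knockout (0.59), and at 40.9 and 23.6 in WT (0.77). The Srsf9 value in the knockout was close to the 1.5-fold line and fell short of it with equal library totals (0.54), after median-ratio rescaling (0.53) and with a pseudocount of 5 FPKM (0.53), which left 3 members past it. The sum of the 9 near-identical copies of Hnrnpa1 was also higher at 24 h (0.67 in the knockout and 0.80 in WT). Most of that sum came from Gm10052, at 20.5 FPKM at 24 h and 12.3 at 0 h in the knockout against 27.6 and 14.8 in WT, while Gm7729 was listed at 0 in all libraries.

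The other 4 genes past 1.5-fold in WT were short of it in the knockout. Srsf3, the gene of a small SR protein that also acts in mRNA export, was at 25.6 FPKM at 24 h and 17.2 at 0 h in the knockout (0.55), against 29.2 and 17.4 in WT (0.72). Tra2b was at 14.8 and 10.4 FPKM in the knockout (0.48), against 17.3 and 10.2 in WT (0.71). Hnrnpa3 was at 70.5 and 51.7 FPKM in the knockout (0.44), against 84.1 and 54.0 in WT (0.63). It has 25 near-identical copies with a summed level close to its own, of 66.1 and 43.5 FPKM in the knockout against 82.2 and 46.5 in WT. Hnrnpa2b1, which encodes a reader of RNA-sorting motifs, was at 82.1 and 57.3 FPKM in the knockout (0.51), against 88.7 and 57.9 in WT (0.61). In WT, Hnrnpa3 and Hnrnpa2b1 fell short of 1.5-fold with equal totals (0.57 and 0.55) and after median-ratio rescaling (0.57 and 0.55), and Tra2b (0.55) and, just below the line, Hnrnpa2b1 (0.58) with a pseudocount of 5 FPKM, so that 6 members were left each time. With its near-identical copies added, Srsf3 passed 1.5-fold in the knockout as well (0.65).

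Upstream sequences are shown for the 3 members with the largest upward differences at 24 h in both genotypes; promoter activity was not measured. They are the 250 bases before the RefSeq start (GRCm38.p6), 5′ to 3′. Capitals mark 5 motifs searched on both strands, namely the GC box GGGCGG, the CCAAT box CCAAT, the ETS core CCGGAA, the E-box CACGTG and TATAA. Neighbouring or overlapping motifs merge into a single run of capitals.
Hnrnpab (chr11:51606882-51607131, - strand): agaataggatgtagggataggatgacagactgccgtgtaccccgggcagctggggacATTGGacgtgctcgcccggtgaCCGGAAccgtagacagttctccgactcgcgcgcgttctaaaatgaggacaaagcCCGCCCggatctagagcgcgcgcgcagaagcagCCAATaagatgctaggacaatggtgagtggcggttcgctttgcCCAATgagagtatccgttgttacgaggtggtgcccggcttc
Hnrnpa1 (chr15:103240147-103240396, + strand): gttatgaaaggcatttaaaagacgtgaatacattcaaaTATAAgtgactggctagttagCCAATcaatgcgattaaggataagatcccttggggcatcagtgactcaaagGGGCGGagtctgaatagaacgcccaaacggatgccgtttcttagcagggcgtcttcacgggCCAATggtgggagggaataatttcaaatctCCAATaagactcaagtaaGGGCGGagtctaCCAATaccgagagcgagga
Srsf7 (chr17:80207306-80207555, - strand): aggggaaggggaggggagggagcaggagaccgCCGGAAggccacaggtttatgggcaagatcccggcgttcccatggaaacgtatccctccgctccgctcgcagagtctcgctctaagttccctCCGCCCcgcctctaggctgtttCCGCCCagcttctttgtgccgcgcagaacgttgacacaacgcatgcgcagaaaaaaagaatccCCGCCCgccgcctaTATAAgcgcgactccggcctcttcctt
A promoter was listed for 36 of the 38 members, with 51 starts in all, and not for Clk1 and Hnrnpul2. The GC box was present in 74.5% of the 51 windows, beside 32.7% of all 32851 windows of the same length. The CCAAT box was in 47.1% beside 33.8%, the ETS core in 31.4% beside 12%, TATAA in 15.7% beside 22.8% and the E-box in 7.84% beside 6.02%. Some genes have several starts, in places with overlapping windows, so the windows are not independent. Counted by gene, 80.6% of the 36 had a GC box and 55.6% a CCAAT box in some window. The ETS core was in 33.3%, TATAA in 22.2% and the E-box in 11.1% of these genes. Shares by gene were not computed over all genes. The Hnrnpa1 window held 4 CCAAT boxes, the Hnrnpab window 3 and the Srsf7 window none, while the Srsf7 window held 3 GC boxes. All windows include those of non-coding genes, and a match of letters is a description, not a binding site.

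The SR protein genes differed among themselves. Of 10, 2 were 1.5-fold higher at 24 h in the knockout and 3 in WT (20.0% and 30.0%), beside 13.8% and 13.3% of all genes kept, and with so few genes these shares cannot be set apart from the background. Their medians were 0.24 and 0.40. Srsf2, which encodes the speckle marker SC35, was at 63.7 FPKM at 24 h and 50.5 at 0 h in the knockout (0.33), against 61.4 and 44.7 in WT (0.45). Srsf6 was at 32.6 and 26.7 FPKM in the knockout (0.28), against 32.9 and 24.8 in WT (0.39). Srsf5, the highest SR gene at 0 h, pointed the other way, at 53.0 and 58.7 FPKM in the knockout (−0.15) against 56.2 and 63.7 in WT (−0.18). Its copy Gm12966 was at 14.8 and 18.6 FPKM in the knockout against 14.1 and 19.9 in WT. Srsf11 was nearly level in the knockout, at 11.07 FPKM at 24 h and 11.04 at 0 h, and stood at 10.8 and 11.5 in WT (−0.08). Srsf1, the founding member of the family, was at 9.26 and 11.1 FPKM in the knockout (−0.23), against 10.8 and 10.4 in WT (0.04).

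The kinases did not share the upward lean, with medians of 0.03 in the knockout and 0.08 in WT and 3 of 6 positive in each. Clk1 (chromosome 1, 58410189 to 58424066, − strand), which encodes a dual-specificity kinase of SR proteins and whose transcript is known for detained introns, was the member past 1.5-fold downward in the knockout. It stood at 9.67 FPKM at 24 h and 15.8 at 0 h in the knockout (−0.66), and at 10.4 and 15.0 in WT (−0.49). Both 24 h libraries were below both 0 h libraries. Its relative Clk4 differed in the other direction, at 12.3 and 8.80 FPKM in the knockout (0.44) and 11.5 and 8.46 in WT (0.40). Clk3 was at 5.85 and 7.31 FPKM in the knockout (−0.28), and at 6.58 and 7.37 in WT (−0.14). Its exons overlap those of Edc3 on the other strand over 1284 bases, and the strandedness of the libraries is not given. Clk2 was nearly level, at 5.05 and 5.42 FPKM in the knockout and 5.15 and 5.27 in WT. Srpk1 was at 4.61 and 3.57 FPKM in the knockout (0.29), against 4.60 and 3.28 in WT (0.39), and Srpk2 at 2.76 and 2.39 (0.15) against 3.25 and 2.73 (0.19). The Srpk2 exons overlap those of Kmt2e on the other strand over 972 bases, so the low Srpk2 values are uncertain. Kmt2e was at 11.0 FPKM at 24 h and 13.7 at 0 h in the knockout, against 9.40 and 12.5 in WT. Son, Srrm1 and Srrm2 ran from −0.15 to −0.02 in the knockout and from −0.15 to 0.09 in WT.

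Among the hnRNPs, the 7 of the A/B and D type were all higher at 24 h in both genotypes and under both rescalings, with medians of 0.44 in the knockout and 0.61 in WT. The 10 other hnRNPs had medians of 0.25 and 0.29, with 8 of 10 positive in each genotype. Hnrnpm was at 39.7 FPKM at 24 h and 28.3 at 0 h in the knockout (0.48), against 38.4 and 26.8 in WT (0.50). Hnrnph1, a relative of Hnrnpf that also binds G-runs, was at 17.8 and 12.4 FPKM in the knockout (0.48), against 19.0 and 13.7 in WT (0.45). Hnrnpu, which encodes the scaffold attachment factor that also binds chromatin, was at 35.6 and 29.3 (0.27) against 39.6 and 29.8 (0.40). Hnrnpl, whose protein binds CA repeats, was at 25.9 and 22.1 FPKM in the knockout (0.22), against 25.2 and 21.9 in WT (0.19). Hnrnpul1 pointed downward, at 21.1 and 25.4 FPKM in the knockout (−0.26) against 19.8 and 21.9 in WT (−0.13). The member 1.5-fold lower in WT was Hnrnpf (−0.83), against −0.05 in the knockout, and with its copies added the WT difference turned to 0.14.

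**Figure D4:**
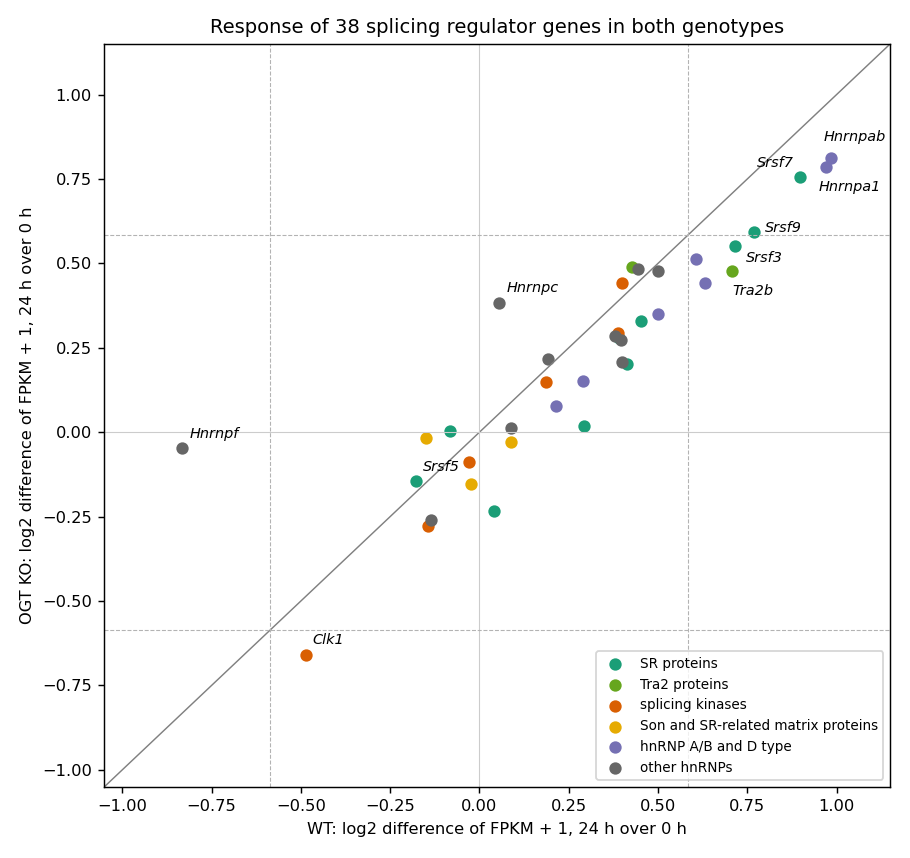
Log2 difference of FPKM + 1, 24 h over 0 h, in the OGT knockout (vertical) against WT (horizontal) for the 38 members coloured by class; the diagonal marks equal differences, dashed lines 1.5-fold, and there is 1 library per group. Most points lie below the diagonal near it, Hnrnpab and Hnrnpa1 are at the upper right, Clk1 at the lower left, and Hnrnpf stands apart at the left (−0.83 in WT, −0.05 in the knockout).

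The differences of the 2 genotypes followed each other across the members. Of 38, 27 were positive in both and 8 negative in both, and Pearson's r was 0.88 and Spearman's rho 0.92 across the 38 genes (0.94 and 0.92 without Hnrnpf). The genes are not independent replicates, and the pair of differences has no library in common. Between the knockout differences at 24 h and at 0 h, r was 0.40 and rho 0.58 across 38 genes (0.62 and 0.66 without Hnrnpf), and 27 of 38 had the same sign. These correlations and sign counts were not computed over all genes, so neither agreement can be called particular to the members.

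The difference at 24 h over 0 h was smaller in the knockout than in WT, counted as a signed log2 value, for 29 of 38 members (76.3%), beside 49.1% of 12000 genes. The median of the knockout response minus the WT response was −0.12, beside 0.00 over all genes. In the 6 further splicing lists described below, the response was smaller in the knockout for 62.5% to 73.7% of genes. Their medians ran from −0.08 to −0.02, so this lean was not particular to the members. All 7 hnRNPs of the A/B and D type and 8 of 10 SR protein genes had the smaller response in the knockout. The largest such differences were those of Srsf4 and Srsf1 (−0.27 each), Tra2b (−0.23), Srsf10 (−0.21) and Hnrnpk (−0.19). With near-identical copies added, Tra2b came to −0.13, Srsf10 to −0.12 and Hnrnpk to −0.18. Srsf4 stood at 11.6 FPKM at 24 h and 11.5 at 0 h in the knockout, against 12.3 and 9.90 in WT. On the other side, 1 member, Hnrnpf (0.79), was past 1.5-fold, where 3.82% of all genes were, and none was past it downward, where 3.11% were. Hnrnpc (0.33) and Son (0.13) followed. Counting error weighs more on such a difference of differences than on a single one, and these values have no replicate check. The difference of responses equals the knockout difference at 24 h minus that at 0 h. It shares the WT 24 h library with the genotype comparison at 24 h and with the WT response. The smaller responses and the lower levels in the knockout at 24 h are therefore not separate results.

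Other genes of the splicing machinery were described from 6 lists, whose counts stand beside 13.8% of all genes 1.5-fold higher at 24 h in the knockout and 13.3% in WT. Of 27 U1 and U2 snRNP and branch site genes, 5 were 1.5-fold higher at 24 h in the knockout and 5 in WT (18.5% each, near that background), with medians of 0.28 and 0.29. Among them Snrpa1, which encodes the U2 A′ protein, was at 8.12 FPKM at 24 h and 3.17 at 0 h in the knockout (1.13), against 9.18 and 3.50 in WT (1.18). Of 36 Sm protein and tri-snRNP genes, 7 were higher in the knockout and 10 in WT (19.4% and 27.8%), with medians of 0.29 and 0.34, and the core Sm gene Snrpd1 was at 53.9 and 29.0 FPKM in the knockout (0.87) against 53.3 and 27.8 in WT (0.92). Across the 6 lists, 1 gene was 1.5-fold lower at 24 h in the knockout, where 13.4% of all genes were. It was Rsrc1, among the further SR and hnRNP relatives, at 1.37 FPKM at 24 h and 2.55 at 0 h (−0.59). In WT it was at 1.91 and 1.73 FPKM, and no gene of the lists was 1.5-fold lower, where 13.3% of all genes were. Of 20 nuclear speckle, paraspeckle and RNA export genes, 4 were higher in the knockout and 5 in WT (20.0% and 25.0%), with medians of 0.26 and 0.31, among them Sfpq at 0.67 and 0.76. The 40 other splicing regulators had medians of 0.03 and 0.13, with Rbm14 at 0.77 and 0.66. The 25 further SR and hnRNP relatives had medians of 0.05 and 0.09, and the 19 genes of nonsense-mediated decay and exon junctions 0.10 and 0.18, with Smg5 at 0.96 and 1.03.

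Between genotypes, no gene of the 6 lists was 1.5-fold higher or lower at 0 h. Of all genes kept, 2.78% were higher and 3.34% lower at 0 h, and 2.91% and 2.47% at 24 h. In the lists 1 gene was 1.5-fold lower at 24 h and none higher. It was Snrnp70, which encodes the U1 70K protein. It was at 11.1 FPKM at 24 h and 9.97 at 0 h in the knockout, against 18.3 and 10.5 in WT, and was high in WT at 24 h alone (−0.67). Beside the upward lean at 24 h, the genes of DNA replication and cell division, a list added after the values were seen, had medians of 0.60 in the knockout and 0.53 in WT, with 16 of 17 positive in each and Pcna at 238 FPKM at 24 h and 70.1 at 0 h in the knockout against 214 and 74.0 in WT. Between genotypes their medians were −0.36 at 0 h, with 13 of 16 negative, and −0.24 at 24 h, with 15 of 17 negative. Their part in the splicing genes' values was not tested.

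**Figure D5:**
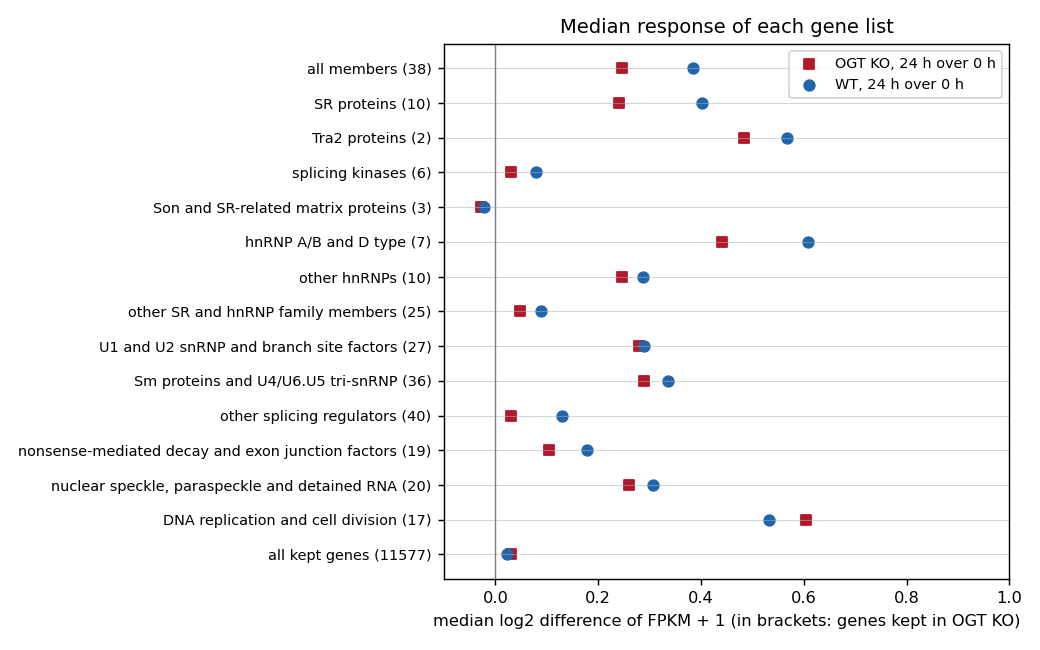
Median log2 difference of FPKM + 1, 24 h over 0 h, for each class of members, each further splicing list, the replication genes and all genes kept, in the OGT knockout (red squares) and WT (blue circles); brackets give the number of genes kept in the knockout. The hnRNPs of the A/B and D type are at 0.44 and 0.61, the kinases at 0.03 and 0.08, and all genes at 0.03 and 0.02.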

How the data were processed

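Each of the 4 groups held 1 library, prepared with a SMARTer mRNA-seq kit, per the labels' protocols. STAR and StringTie with GRCm38 are named in the submitters' processing notes. Versions, annotation release and strandedness are not stated there. The authors' deposited values were read as FPKM from their range and unequal totals, since the table names no unit. Of 52550 Ensembl identifiers, 52403 were given symbols from GENCODE M21, and genes sharing a symbol were summed. Differences are log2 of FPKM + 1 of the first group named over the second; the pseudocount understates differences of low genes. Genes with at least 1 FPKM in a library of the comparison were kept. Counts use 1.5-fold and 2-fold, and every value is a description without a test. Near-identical copies were found with blastn 2.17.0. Fragments per FPKM were estimated from the most common product of value and length over genes with 1 exon. The calculation of differences was checked on WT 0 h values copied to all libraries, with known folds set in some genes. No noise was added, so this checks the arithmetic only and not the error of a single library. The members and lists were chosen with earlier results of these data known. All members may be named. The 5 largest differences of each sign were ranked in each comparison, and most of them, but not all, are given. Of each further list, up to 4 genes past 1.5-fold may be named. Exons of 18 members overlap another gene, and 11 members have near-identical copies, so these values are less certain. Promoter sequences are from RefSeq (GRCm38.p6), and protein sequences were not used here. The motif search was not part of the original plan. The alternatives were pseudocounts of 0.1 and 5 FPKM, no filter, a filter at 5 FPKM and both rescalings, and, added after the data were seen, the sum of each member with its copies.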

Additional observations from a re-analysis of the deposited data

How the results depend on the processing

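Of 105 recomputed counts and medians over the members, 100 kept within 1.5 times of the count, or within 0.1 of the median, of the value given. The counts higher at 24 h were 3 in the knockout and 6 in WT with both rescalings and with a pseudocount of 5 FPKM, against 4 and 8 as given. With a pseudocount of 5 FPKM, the count of members 1.5-fold lower at 24 h in the knockout was 0 (Clk1 came to −0.51), and the median of WT at 24 h over 0 h was 0.22. With near-identical copies added, an alternative chosen after seeing the data, the count 1.5-fold higher in the knockout at 24 h, the count lower at 24 h in WT and the count of larger knockout responses were each 0. All 3 changes come from Hnrnpf, whose WT difference then turned to 0.14. Median-ratio rescaling made 31 of 38 members positive between genotypes at 0 h, against 19 as given. Of 347 recomputed differences of single members, 337 stayed within 0.1. The other 10 came from the pseudocount of 5 FPKM or the added copies. Omitting the filter could change no member value, since all members were above 1 FPKM in all libraries. That fixed 50 of the 337 and 15 of the 100 in advance. The filter at 5 FPKM drops genes and leaves single differences as they are, which fixed a further 47 of the 337. No paired analysis was possible because each group holds 1 library. Depth limits the lowest members, Hnrnpr, Srpk2 and Srpk1, most.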
